A study of Macaca mulatta with 9 samples.

Results

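Whole blood RNA was compared between rhesus macaques (Macaca mulatta) that had received either of 2 preparations of extracellular vesicles. One preparation, here ABPC_EV, came from antler blastema progenitor cells, and the other, FBMSC_EV, carries a cell abbreviation that the labels do not spell out. The comparison uses 6 of the series' 9 libraries, all 3 of each vesicle group, chosen by their labelled treatment and not by any measured value. The 3 remaining libraries came from animals injected with PBS, the vehicle, whose descriptions call them Old. They enter the fit for its estimate of spread and are shown beside the vesicle groups as the background level. The design text assigns the monkeys to the groups at random, and every animal is labelled WT. Dose, number of injections, time of sampling, age and sex are not in the labels. Each library stands for 1 animal, so a spread between libraries is a spread between animals, and 3 animals in a group limit what can be called.

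Extracellular vesicles are membrane-bound particles that cells release and that carry proteins, lipids and RNA to other cells. Deer antlers regrow each year from a mass of proliferating progenitor cells called the blastema, and vesicles of these cells were the treatment of one group. The comparison with another cell source asks whether the blood transcriptome depended on where the vesicles came from. Whole blood RNA is a mixture. Reticulocytes, the youngest circulating red cells, contribute most of the globin RNA. Neutrophils, monocytes, lymphocytes and platelets contribute the rest. In such bulk samples fewer cells of a type and less RNA per cell cannot be told apart.

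Values are per-million values in which each gene's reads are divided by a gene length, so levels may be compared between genes. Because each library's values sum to 1000000, a library with less globin RNA lists almost every other gene higher. Each library was divided by its median ratio to the other libraries over the 13350 genes above 0 in all 9. This factor is not a measure of globin alone. Levels below are the values so scaled. A scaled value is no longer a part of a fixed total. A difference is the log2 difference, ABPC_EV minus FBMSC_EV, of log2(scaled value + 1), from a limma fit with a trend, which understates the change of genes at low levels. The groups are said not to overlap where all 3 libraries of one lie above all 3 of the other.

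The libraries held 11.7 to 13.3 M recovered reads in the 6 vesicle animals (M, 1000000). HBB, HBA and HBA1, the adult globin genes, took 47.5, 47 and 58% of these reads in FBMSC_EV replicates 1 to 3 and 46.7, 30.3 and 34.6% in ABPC_EV replicates 1 to 3. The groups did not overlap (50.8% ± 6.25 against 37.2% ± 8.49, SD, n = 3 each; exact permutation p = 0.1, two-sided, the smallest that 3 against 3 allow). The margin was narrow, since ABPC_EV replicate 1 lay just under FBMSC_EV replicate 2. As a share of the per-million values the same genes overlapped, at 82.3, 82.5 and 87.6% and 82.4, 70.9 and 75.1% (exact permutation p = 0.2). The scale factors were 0.973, 1.19 and 0.945 under FBMSC_EV and 1.5, 2.14 and 2.49 under ABPC_EV, also without overlap (exact permutation p = 0.1). FBMSC_EV replicates 1 and 2 and ABPC_EV replicate 1 had nearly the same globin share of the per-million values, 82.3, 82.5 and 82.4%. Their factors were 0.973, 1.19 and 1.5. What the factors hold beyond globin was not tested. Genes at a deposited value of 1 or more numbered 9232 ± 388 and 11249 ± 649 (SD, n = 3 each; exact permutation p = 0.1), whereas at a scaled value of 1 or more they numbered 9136 ± 97.9 and 9228 ± 280 (exact permutation p = 0.7). Markers were those of blood. Of the hepatocyte markers ALB was listed at 0 in 5 and APOA1 in 5 of the 6 libraries, and the fibroblast gene COL1A1 was listed at 0 in 5 of the 6. FGB, a fibrinogen chain, was at 0.559, 0.522 and 0.673 under FBMSC_EV and 0.275, 0.0259 and 0.181 under ABPC_EV. A pair of libraries stood apart within their groups: FBMSC_EV replicate 1 had the highest summed neutrophil and monocyte markers of the 6, and ABPC_EV replicate 2 the highest platelet markers and the lowest median over the erythroid genes. Leaving a library out can only add genes to a count without overlap. Over all genes the share with ABPC_EV below rose from 7.33% to 9.48% without ABPC_EV replicate 3 and to 20.2% without ABPC_EV replicate 2, the lowest and highest of the 6 such settings, and the share above rose from 3.57% to 5.69% without FBMSC_EV replicate 1 and to 11.6% without ABPC_EV replicate 2. The larger moves of list counts are given beside the lists.

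**Figure D1:**
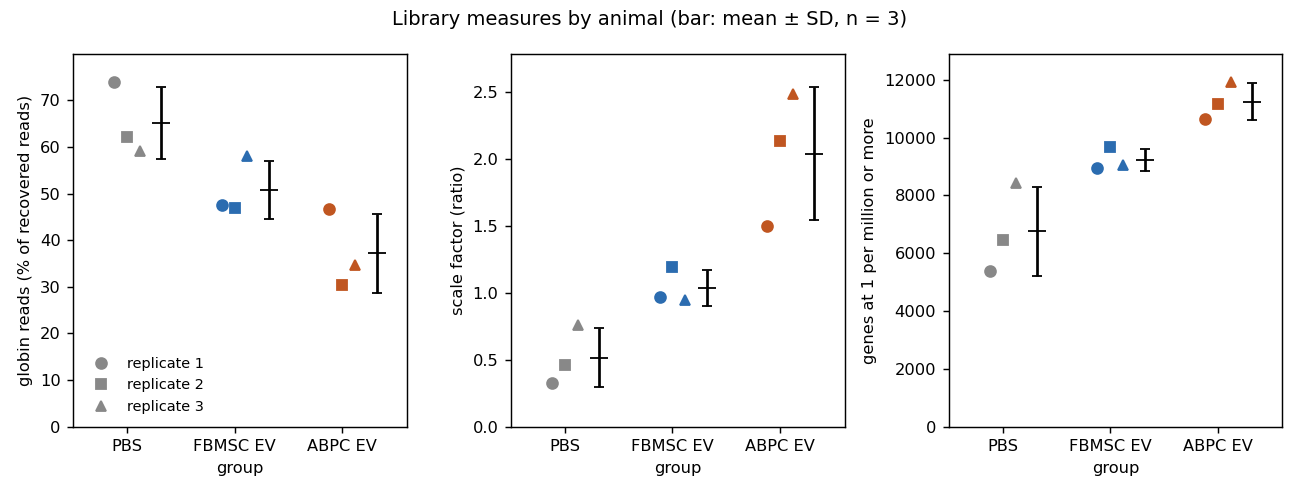
Globin reads in percent of recovered reads, scale factor as a ratio, and number of genes at a deposited value of 1 or more (y axes) in each animal of the 3 groups (x axes); symbols mark replicates and bars the mean ± SD, n = 3. The FBMSC_EV and ABPC_EV animals do not overlap in any panel, with globin at 50.8% ± 6.25 and 37.2% ± 8.49 of reads.

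No single gene passed the threshold. Of 9293 genes with a mean scaled value of at least 1, 0 had an adjusted p at or under 0.05 (limma, Benjamini-Hochberg over all genes tested), and the smallest adjusted p was 0.828. Unadjusted, 513 genes (5.52%) had a p under 0.05, of which 110 were higher in ABPC_EV (1.18%) and 403 lower (4.34%). By limma-voom on the recovered reads 0 passed as well, with 584 of 9292 genes (6.28%) at an unadjusted p under 0.05, of which 123 were higher (1.32%) and 461 lower (4.96%). With no filter on low values 5 of 21551 genes passed (limma), 4 higher (0.0186%) and 1 lower (0.00464%), all of them LOC loci with at most 12 recovered reads in any of the 6 libraries; 1035 (4.8%) had an unadjusted p under 0.05. All 3 ABPC_EV libraries lay above all 3 FBMSC_EV libraries for 332 genes (3.57%) and below them for 681 (7.33%). These 2 shares are the background against which the counts in each gene list are read. The median difference over all genes was -0.04, with 44.4% of genes above 0 and 55.6% below. In a simulation of this comparison the same test called 27.6% of genes changed by 1 on the log2 scale, 66.7% of those changed by 2 and 91.7% of those changed by 3, so changes of 2-fold would mostly not have been called.

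The lists departed from that background in both directions. Red cell and interferon-stimulated genes had the lowest medians among the lists with at least 8 tested genes, -0.95 and -0.77. B cell, T cell and platelet genes had medians of 0.45, 0.42 and 0.39. The mitochondrial genome list had a median of 0.51, but its only gene without overlap lay below (1 of 11, 9.09%, against 7.33% of all genes). As no member of any list passed the threshold, the genes below are given as levels and differences, and none is called changed.

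**Figure D2:**
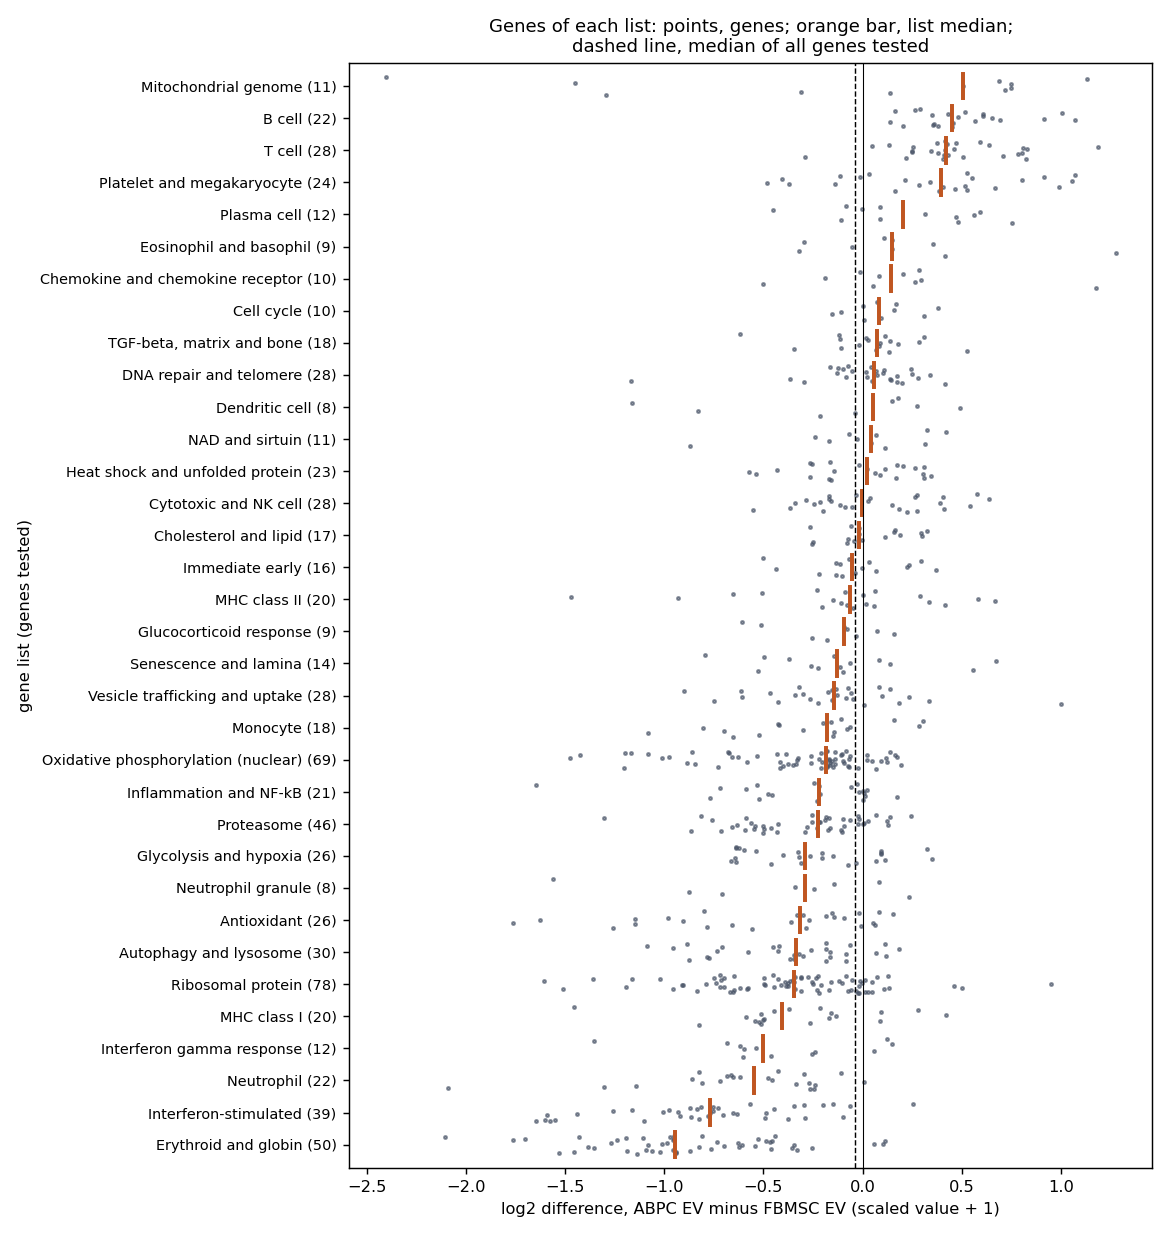
Log2 difference, ABPC_EV minus FBMSC_EV, of every tested gene (points) in each list with at least 8 tested genes (y axis, number tested in brackets); orange bars are list medians and the dashed line is the median of all 9293 genes, -0.04. The erythroid and interferon-stimulated lists lie lowest, at -0.95 and -0.77.

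Red cell transcripts were lower in the ABPC_EV animals on the scaled values. Of 50 tested erythroid genes, 47 had a difference below 0, and for 32 (64%, against 7.33% of all genes) every ABPC_EV library lay below every FBMSC_EV library. None lay above. HBB, the beta chain of adult hemoglobin, stood at a scaled value of 597818, 521726 and 701927 in FBMSC_EV replicates 1 to 3 and 421397, 222962 and 219491 in ABPC_EV replicates 1 to 3. The groups did not overlap, and the difference was -1.14 (SE 0.44, unadjusted p = 0.0294, limma). HBA and HBA1 encode alpha chains and are near-identical copies, so reads may have been divided between them. HBA was at 229500, 158300 and 194100 and at 115200, 97210 and 74870 in the same order, a difference of -1.02.

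Genes of heme synthesis followed the globins. ALAS2, the erythroid enzyme of the first step of heme synthesis, was at 2918, 2407 and 2076 under FBMSC_EV and 1897, 1103 and 983 under ABPC_EV. SLC25A38 carries glycine into mitochondria for that step. Its levels were 27, 19.2 and 20.5 and 8.14, 6.6 and 11.5, a difference of -1.27 (SE 0.25, unadjusted p = 0.000545, limma) and the smallest p of the list. Neither gene overlapped between the groups. CPOX, a later enzyme of the same pathway, was at 2.2, 2.46 and 2.4 and 2.38, 2.34 and 3.24, with overlap and a difference of 0.11, so the pathway's members did not share 1 difference.

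CA1 and HEMGN had larger differences. CA1, a red cell carbonic anhydrase, was at 202, 134 and 85.3 under FBMSC_EV and 45.5, 36.3 and 55.6 under ABPC_EV. The difference was -1.53 (SE 0.41, unadjusted p = 0.00406, limma). HEMGN, a nuclear protein of erythroid precursors named here after its values were seen as the list's lowest difference (-2.11), was at 61.3, 45.7 and 48.9 and 18.9, 5.43 and 13.2. Replicate 2 was the lowest of the ABPC_EV libraries for HEMGN.

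Per library, the median of the 50 genes relative to the FBMSC_EV mean was 0.15, -0.04 and -0.09 in the FBMSC_EV animals, -0.45, -1.18 and -0.79 in the ABPC_EV animals and 0.94, 0.92 and -0.28 in the PBS animals (log2). All ABPC_EV animals lay below the other 6. PBS replicates 1 and 2 lay above every vesicle animal, while PBS replicate 3 lay between the vesicle groups. When single libraries were left out, the list's median difference ranged from -1.06 to -0.70, the upper end without ABPC_EV replicate 2. Without that library 33 of 50 genes still did not overlap, against 20.2% of all genes. Summed over the list, the scaled value was 852404, 698031 and 931774 under FBMSC_EV and 552354, 333543 and 304432 under ABPC_EV (exact permutation p = 0.1; 8 of 39 lists reached this smallest p, and adjusted over the lists the smallest value was 0.488).

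**Figure D3:**
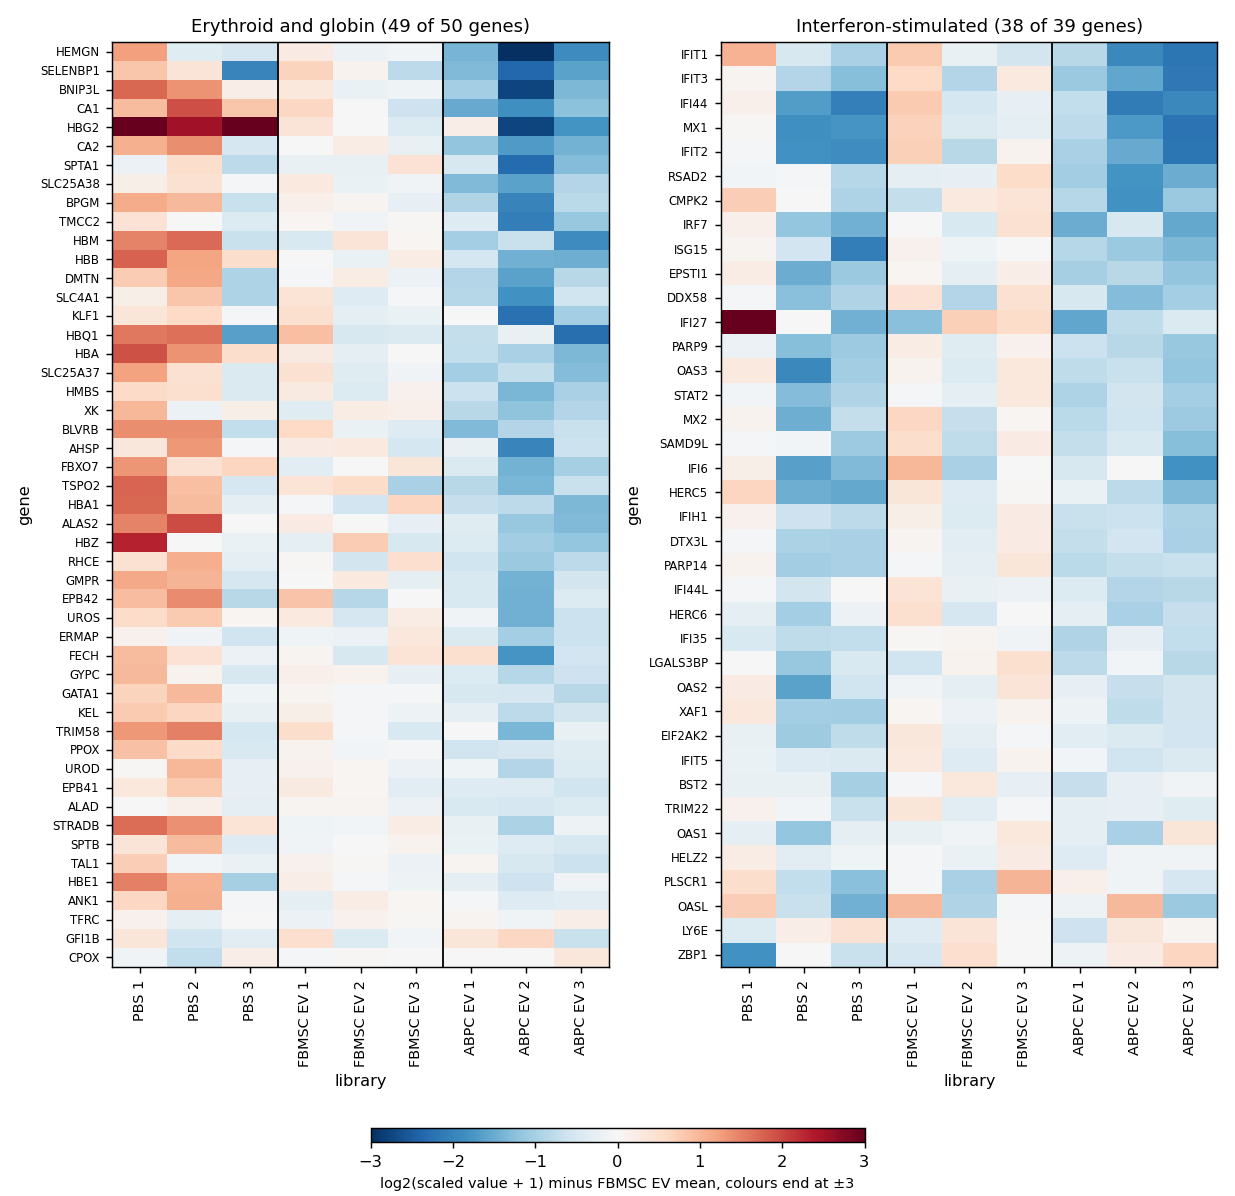
Level of tested erythroid genes (left, 49 of 50) and interferon-stimulated genes (right, 38 of 39) in the 9 libraries (x axis), as log2(scaled value + 1) minus the gene's mean over the 3 FBMSC_EV libraries; blue is lower and red higher. ABPC_EV columns are mostly blue in both panels, and in the right panel PBS 2 and PBS 3 are blue as well while PBS 1 is not.

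Antioxidant genes, many of which red cells express strongly, had a median of -0.32 over 26 tested genes, 22 of them below 0. For 7 (26.9%, against 7.33% of all genes) the ABPC_EV libraries lay below the FBMSC_EV libraries, and for 12 (46.2%, against 20.2%) without ABPC_EV replicate 2. GLRX5, a glutaredoxin of iron-sulfur cluster assembly, had levels of 88.5, 132 and 121 under FBMSC_EV and 44.4, 33.4 and 30.5 under ABPC_EV. This was a mean of 114 ± 22.5 against 36.1 ± 7.3 (SD, n = 3 each) and a difference of -1.63 (SE 0.38, unadjusted p = 0.00175, limma). PRDX2, the peroxiredoxin of red cells, was at 140.3, 134 and 65.3 and 26.9, 59.8 and 53.6, also without overlap but with a wide spread. SOD1, the cytosolic superoxide dismutase, was at 29.6, 28.7 and 28.1 and 24.2, 13.6 and 21.6. TXN (thioredoxin), PRDX6, GLRX and SRXN1 were the other members that did not overlap. Catalase (CAT) overlapped, with 60.5, 38.4 and 44.7 against 38.6, 46.6 and 31.7, as did HMOX1, the inducible heme oxygenase, with 6.49, 5.41 and 4.58 against 5.22, 8.55 and 5.2. The difference in globin reads accompanied these values, and its part in them was not tested.

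Interferon-stimulated genes were the other large group on the lower side. Type I interferons induce this program through a complex of transcription factors, and its products block viral replication. Of 39 tested genes 38 had a difference below 0, and for 20 (51.3%, against 7.33% of all genes) the ABPC_EV libraries lay below the FBMSC_EV libraries. RSAD2, which encodes the antiviral enzyme viperin, was at 5.21, 5.44 and 10.2 under FBMSC_EV and 2.72, 1.21 and 1.72 under ABPC_EV. It had the list's smallest p: the difference was -1.44 (SE 0.31, unadjusted p = 0.00105, limma). MX1, a dynamin-like GTPase that traps viral particles, was at 36.1, 15.9 and 17.9 and 12.2, 5.87 and 3.92, a difference of -1.58 (SE 0.55). IFIT1, which binds foreign RNA caps, was at 35.9, 17.4 and 13.5 and 11, 4.6 and 3.8. Neither gene overlapped, although FBMSC_EV replicate 1 was well above the other 2 for both. ISG15, a ubiquitin-like modifier, was more even, at 6.94, 5.56 and 6.24 against 3.02, 2.31 and 1.85.

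A transcription factor of the pathway stood in the same order. IRF7, the factor that amplifies interferon production, named after its values were seen, was at 15.3, 10.9 and 21.4 under FBMSC_EV and 4.82, 10.8 and 4.68 under ABPC_EV. In IRF7 the gap between the nearest libraries of the groups was small. ZBP1, a sensor of unusual nucleic acids, was the only tested member above 0, at 3.22, 7.49 and 5.1 against 4.45, 6.2 and 8.47 with overlap.

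The PBS animals were spread over both levels. The median over the 39 genes relative to the FBMSC_EV mean was 0.11, -0.30 and 0.14 in the FBMSC_EV animals, -0.71, -0.69 and -0.998 in the ABPC_EV animals and 0.07, -1.02 and -0.97 in the PBS animals (log2). ABPC_EV animals were thus close to PBS replicates 2 and 3, and PBS replicate 1 was close to the FBMSC_EV animals. The 3 PBS animals did not share 1 level, so which vesicle group departed from vehicle cannot be read from these values. The list's median difference ranged from -0.96 to -0.65 with each library left out. Without FBMSC_EV replicate 1, 22 of the 39 genes did not overlap, against 10.6% of all genes, and without ABPC_EV replicate 2 also 22, against 20.2%. The highest count was 31 (79.5%, against 13.7%), without FBMSC_EV replicate 2.

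Neighbouring interferon gamma response and MHC class I genes leaned the same way with fewer separated members, while MHC class II and dendritic cell genes were split. Of 12 tested interferon gamma response genes, 9 had differences below 0 and 3 did not overlap: WARS, CD274 and JAK2 (25%, against 7.33% of all genes). Without FBMSC_EV replicate 1 the count was 6 (50%, against 10.6% of all genes). WARS, a tryptophanyl-tRNA synthetase that interferon gamma induces, was at 42.4, 46.1 and 71.5 under FBMSC_EV and 17, 30.7 and 14.6 under ABPC_EV (difference -1.35, SE 0.40, unadjusted p = 0.00732, limma). IRF1 was at 90.3, 95.2 and 111 and 44.6, 116 and 51.5, with overlap because ABPC_EV replicate 2 was the highest of the 6. Of 20 MHC class I and processing genes, 16 had differences below 0, and B2M and NLRC5 did not overlap (10%, against 7.33% of all genes). That count rested on single libraries: it was 9 of 20 (45%, against 20.2%) without ABPC_EV replicate 2 and 7 of 20 (35%, against 10.6%) without FBMSC_EV replicate 1. B2M, the light chain of MHC class I, was at 2279.6, 1364 and 1567 and 1100.1, 838 and 953. NLRC5, the transactivator of MHC class I genes, was at 35.9, 35.8 and 39.5 and 19.5, 29.7 and 29.2. MHC class II genes had a median of -0.06 over 20 genes, 9 of them above 0 and 11 below. CD74, the invariant chain, was at 822, 760.0 and 953 and 877, 1014 and 604. Of the 20 genes, MAMU-DQA1 and CTSS, a cathepsin that processes the invariant chain, lay below without overlap (10%, against 7.33% of all genes). The 8 tested dendritic cell genes were split, with 4 above 0, 4 below and a median of 0.05. LILRA4 (0.49) and TCF4 (0.27) were among those above, with overlap. Of the 8, 2 lay below without overlap (25%, against 7.33% of all genes), IDO1 and BATF3 (-0.83). IDO1, a tryptophan-degrading enzyme, was at 182, 91.6 and 189 and 77.5, 77.4 and 45.5. CD1C overlapped at 37.6, 26.4 and 75.8 against 54.3, 47.9 and 18.3.

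Lymphocyte genes lay mostly on the higher side. Of 28 tested T cell genes 27 had a difference above 0, and 5 (17.9%, against 3.57% of all genes) lay above all FBMSC_EV libraries in every ABPC_EV library. These were CD4, CCR7, TCF7, LEF1 and ICOS, of which all but CD4 are named after their values were seen. CD4, the coreceptor of helper T cells, was at 4.66, 7.36 and 4.52 under FBMSC_EV and 8.06, 11 and 12.4 under ABPC_EV. The mean was 1.9 times as high, 10.5 ± 2.21 against 5.52 ± 1.6 (SD, n = 3 each), with a difference of 0.83 (SE 0.22, unadjusted p = 0.00389, limma).

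CCR7, LEF1 and TCF7 are genes of naive and central memory T cells. CCR7, the lymph node homing receptor, was at 9.37, 5.5 and 9.55 and 12.6, 34.1 and 16.7, and TCF7, a Wnt-pathway transcription factor, at 7.88, 10.4 and 9.48 and 11.3, 26.3 and 16.6. ABPC_EV replicate 2 was the highest for both, and PBS animals reached similar levels, with CCR7 at 20.8, 30.9 and 20.4. CD3E, a chain of the T cell receptor complex, overlapped, at 21.6, 39.3 and 35.6 against 21, 46.9 and 72.2. So did CD8A, at 12.8, 33.2 and 20 against 23.5, 13.6 and 42.6.

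The T cell list depended on which animals were in the comparison. Relative to the FBMSC_EV mean its median was -0.43, 0.30 and 0.09 in the FBMSC_EV animals and 0.01, 0.35 and 0.99 in the ABPC_EV animals (log2), so ABPC_EV replicate 3 was high and replicate 1 lay among the FBMSC_EV animals. Leaving out each library gave medians from 0.12 to 0.64, the lowest without ABPC_EV replicate 3. The count without overlap was 15 of 28 (53.6%, against 9.4% of all genes) without ABPC_EV replicate 1 and 10 (35.7%, against 8.95%) without FBMSC_EV replicate 2. Cytotoxic and NK cell genes did not share the direction: 14 of 28 were above 0 and 14 below, the median was 0.00 and none was without overlap. PRF1 (perforin) was at 26.9, 84.7 and 35.4 under FBMSC_EV and 48, 31 and 97.5 under ABPC_EV, and GZMB (granzyme B) at 106, 284 and 114 and 157, 94.3 and 155. The 5 tested regulatory T cell and checkpoint genes were all above 0 with overlap, and FOXP3 and CTLA4 were too low to be tested.

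B cell genes were above 0 in all 22 tested members, with a median of 0.45. For 5 of them (22.7%, against 3.57% of all genes), CXCR5, FCRL1, FCER2, CR2 and TNFRSF13C, the ABPC_EV libraries lay above the FBMSC_EV libraries. The last 4 are named after their values were seen. CXCR5, the chemokine receptor that guides B cells into follicles, was at 3.26, 4.37 and 6.63 under FBMSC_EV and 12.5, 12.3 and 6.9 under ABPC_EV (difference 1.01, SE 0.30, unadjusted p = 0.00836, limma). ABPC_EV replicate 3 was only just above FBMSC_EV replicate 3. PBS animals stood at 8.4, 10.2 and 14.9, so for this gene the FBMSC_EV animals were the lowest of the 9.

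MS4A1, which encodes the B cell surface protein CD20, overlapped. It was at 16.6, 17.3 and 40.2 under FBMSC_EV and 63.3, 31.6 and 15.2 under ABPC_EV. ABPC_EV replicate 3 was the lowest of the 6, and FBMSC_EV replicate 3 lay between ABPC_EV replicates 1 and 2. The list's median was -0.42, -0.15 and 0.55 in the FBMSC_EV and 0.93, 0.64 and -0.12 in the ABPC_EV animals relative to the FBMSC_EV mean, and ranged from 0.19 to 0.76 with each library left out. The count without overlap was 10 of 22 (45.5%) without ABPC_EV replicate 3, against 5.98% of all genes, and also 10 without FBMSC_EV replicate 3, against 7.67%. Of 12 plasma cell genes, 8 were above 0 and 4 below, and JCHAIN and DERL3 lay above without overlap (16.7%, against 3.57% of all genes). JCHAIN, the joining chain of secreted IgM and IgA, was at 5.11, 9.09 and 9.03 and 11.3, 11.1 and 18.9, with PBS animals at 14.2, 17.5 and 28.5. MZB1 overlapped, at 3.09, 6.56 and 3.68 against 6.5, 8.01 and 4.8.

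Platelet and megakaryocyte genes had a median of 0.39, with 18 of 24 above 0. CAVIN2, THBS1 and PTGS1 did not overlap (12.5%, against 3.57% of all genes). CAVIN2, a coat protein of caveolae that platelets hold in quantity, was at 3.13, 3.74 and 3.01 under FBMSC_EV and 8.74, 8.63 and 6.76 under ABPC_EV. The mean was 2.44 times as high and the difference 1.07 (SE 0.27, unadjusted p = 0.0032, limma). THBS1, thrombospondin of platelet granules, was at 2.36, 2.68 and 1.13 and 6.69, 5.25 and 3.94, a difference of 1.06. These genes were not followed by the list's most abundant member. PPBP, the platelet basic protein, was at 200.4, 76.8 and 109 and 201, 309 and 37.7, and ABPC_EV replicates 2 and 3 held the highest and the lowest level of the 6. Without ABPC_EV replicate 2 the list's median was -0.10, so its direction rests on that library. The count without overlap was 10 of 24 (41.7%, against 5.98% of all genes) without ABPC_EV replicate 3 and 5 (20.8%, against 5.69%) without FBMSC_EV replicate 1.

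A pair of genes known from the vessel lining, CLDN5 and EGFL7, stood beside them. Which cells of the blood samples they came from was not tested. CLDN5, a claudin of endothelial tight junctions, was at 0.345, 0.153 and 0.379 under FBMSC_EV and 3.36, 2.0 and 1.21 under ABPC_EV, 7.47 times as high on average from 7 to 188 recovered reads per library (difference 1.25, SE 0.30, unadjusted p = 0.00195, limma). EGFL7, a secreted factor of endothelial cells, was at 0.865, 0.775 and 0.161 and 2.01, 4.84 and 2.26. Neither gene overlapped between the vesicle groups. PBS animals had CLDN5 at 1.57, 1.25 and 0.426, above the FBMSC_EV animals and partly within the ABPC_EV range. The endothelial list went both ways. Of its 4 tested genes, CLDN5 and TIE1 had differences above 0 (1.25 and 0.15). PLVAP and PECAM1 had differences below 0 (-0.72 and -0.13). CDH5, the cadherin of endothelial junctions, was listed at 0 in all 3 FBMSC_EV libraries and at 0.010, 0.0932 and 0.00804 in the ABPC_EV libraries. TEK, an angiopoietin receptor, was at 0.0384, 0.0211 and 0.0122 under FBMSC_EV and 0.0689, 0.116 and 0.0899 under ABPC_EV. Both lay above without overlap, but from at most 9 and 13 recovered reads per library, too low to be tested. TIE1, a related receptor, overlapped at 2.43, 2.29 and 3.31 and 2.15, 5.21 and 2.39. Summed over the 9 endothelial genes the levels were 37.5, 42.1 and 43.4 and 33.3, 38.7 and 34.9.

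Myeloid genes varied widely between single animals. Of 22 neutrophil genes 21 had differences below 0, with a median of -0.55, and all 22 overlapped. Without ABPC_EV replicate 2, 12 of the 22 (54.5%, against 20.2% of all genes) lay below without overlap. S100A8, a calcium-binding protein that fills the neutrophil cytosol, was at 504, 44.8 and 143 under FBMSC_EV and 115, 13.8 and 23.8 under ABPC_EV. CSF3R, the G-CSF receptor, was at 587, 229 and 180.4 and 164, 524 and 169. FBMSC_EV replicate 1 was the highest of its group in both, and ABPC_EV replicate 2 was nearly as high for CSF3R but the lowest of the 6 for S100A8. The list's median ranged from -0.93 to -0.18, the upper end without FBMSC_EV replicate 1 and the lower without ABPC_EV replicate 2.

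Monocyte genes had a median of -0.18 over 18 genes without any that did not overlap. Without ABPC_EV replicate 2, 5 (27.8%, against 20.2% of all genes) lay below. CD14, the endotoxin coreceptor, was at 226, 89.6 and 58.3 and 45.2, 169 and 39, and LYZ, lysozyme, at 583, 230.2 and 159 and 223, 63.9 and 155. In the neutrophil granule list 8 of 17 genes were tested, with a median of -0.29 and none without overlap. Leaving out ABPC_EV replicate 2 gave 3 below (37.5%, against 20.2% of all genes). The 21 inflammation and NF-kB genes had a median of -0.22. Of these TNFAIP6, a secreted hyaluronan-binding protein, was at 19.4, 5.48 and 10.9 and 2.94, 4.26 and 1.46 without overlap, while IL1B overlapped at 39.4, 17.2 and 18.1 against 16, 34.7 and 13.4. TNFAIP6 was the only one of the 21 without overlap (4.76%, against 7.33% of all genes). Without ABPC_EV replicate 2 there were 11 (52.4%, against 20.2% of all genes). TNF was near-level, at 1.82, 2.04 and 2.07 and 1.81, 2.66 and 1.58. CCL3, a chemokine of activated leukocytes, was at 0.674, 1.11 and 1.07 and 5.89, 1.09 and 4.85, with ABPC_EV replicate 2 inside the FBMSC_EV range. Among 9 eosinophil and basophil genes only EPX, eosinophil peroxidase, lay above without overlap (11.1%, against 3.57% of all genes). EPX was at 0.389, 3.77 and 6.31 and 8.08, 6.76 and 8.81, and CCR3 overlapped at 8.16, 10.9 and 10.8 against 15.7, 14.8 and 10.6.

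Genes of respiration and protein turnover leaned to the lower side in ABPC_EV. Of 69 nuclear oxidative phosphorylation genes 58 had differences below 0. On the lower side 19 (27.5%, against 7.33% of all genes) did not overlap, and on the higher side 1, NDUFA9 (1.45%, against 3.57%). ATP5F1E, the small epsilon subunit of ATP synthase, was at 145, 89.7 and 109 under FBMSC_EV and 63.4, 24.8 and 44 under ABPC_EV (difference -1.43, SE 0.37, unadjusted p = 0.0034, limma). ATP5F1B, the catalytic beta subunit of the same enzyme, overlapped at 37.8, 41.6 and 43.6 against 37.4, 55.4 and 38.5. Of 46 proteasome genes 38 were below 0 and 11 (23.9%, against 7.33% of all genes) did not overlap. Without ABPC_EV replicate 2 the counts were 31 of 69 (44.9%) and 19 of 46 (41.3%), against 20.2% of all genes, and the proteasome count was 20 (43.5%, against 10.6%) without FBMSC_EV replicate 1. PSMC2, an ATPase of the regulatory particle, was at 14.2, 14.1 and 16.2 and 11.4, 7.27 and 9.33, and PSMA1, a core subunit, at 10.8, 9.82 and 9.51 and 7.31, 5.48 and 7.76.

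Cytosolic ribosomal protein genes had a median of -0.34, with 66 of 78 below 0 but only 5 (6.41%) without overlap, which is under the background of 7.33%. These were RPL12, RPL32, RPL34, RPL37A and FAU, named after their values were seen. RPLP0 was at 150.4, 165 and 183 under FBMSC_EV and 194, 154 and 144 under ABPC_EV, and RPL3 at 167, 209 and 208 and 198, 178 and 198, both near-level. The list was lowest in ABPC_EV replicate 2, at -0.87 relative to the FBMSC_EV mean against 0.11 in replicate 1, and its median was -0.09 without replicate 2. Without ABPC_EV replicate 1 the count without overlap was 44 of 78 (56.4%, against 13.7% of all genes). Of 30 autophagy and lysosome genes 26 were below 0 and 7 (23.3%, against 7.33% of all genes) did not overlap. Without ABPC_EV replicate 2 the count was 22 (73.3%, against 20.2% of all genes). GABARAPL1 and GABARAPL2, which decorate autophagosome membranes, were at 64.6, 35.7 and 45.1 against 28.7, 19.4 and 18.1 and at 160.3, 152 and 136 against 115, 58.2 and 78.7. LAMP1, a lysosomal membrane protein, overlapped at 61.2, 47.7 and 34.6 against 34.4, 55.4 and 35.7.

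Gene length moved with these values. The number of reads behind 1 unit of a gene's value gives its relative length, and the tested genes were divided by it into 4 bins of 2323 genes. The median difference was -0.15 in the bin of shortest genes, -0.04 and -0.01 in the middle bins and 0.00 in the bin of longest genes. Ribosomal protein genes are short, with 75 of 78 in the first bin, as are 58 of the 69 oxidative phosphorylation genes and 29 of the 46 proteasome genes. Taken against the median of each gene's own bin, the list medians were -0.19, -0.06 and -0.14 in that order. The same step left -0.80 for the erythroid and -0.76 for the interferon-stimulated genes, and 0.46 and 0.50 for the T cell and B cell genes. The part of transcript length in the short-gene lists was not tested.

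Transcripts of the mitochondrial genome were low and uneven. ATP6, a subunit of the ATP synthase, was at 4.88, 2.43 and 6.39 in the FBMSC_EV libraries and was listed at 0 in all 3 ABPC_EV libraries, but also in PBS replicates 1 and 2. COX1, a subunit of cytochrome c oxidase, was at 18.2, 13.4 and 9.05 and 3.25, 11.7 and 2.5. In contrast COX3 was at 5.68, 2.04 and 0.304 and 8.44, 1.95 and 9.07, with overlap, and CYTB at 12.2, 12 and 0.209 and 2.96, 6.0 and 9.02. Since 7 of the 11 genes were above 0 and 4 below, the list had no common direction.

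**Figure D4:**
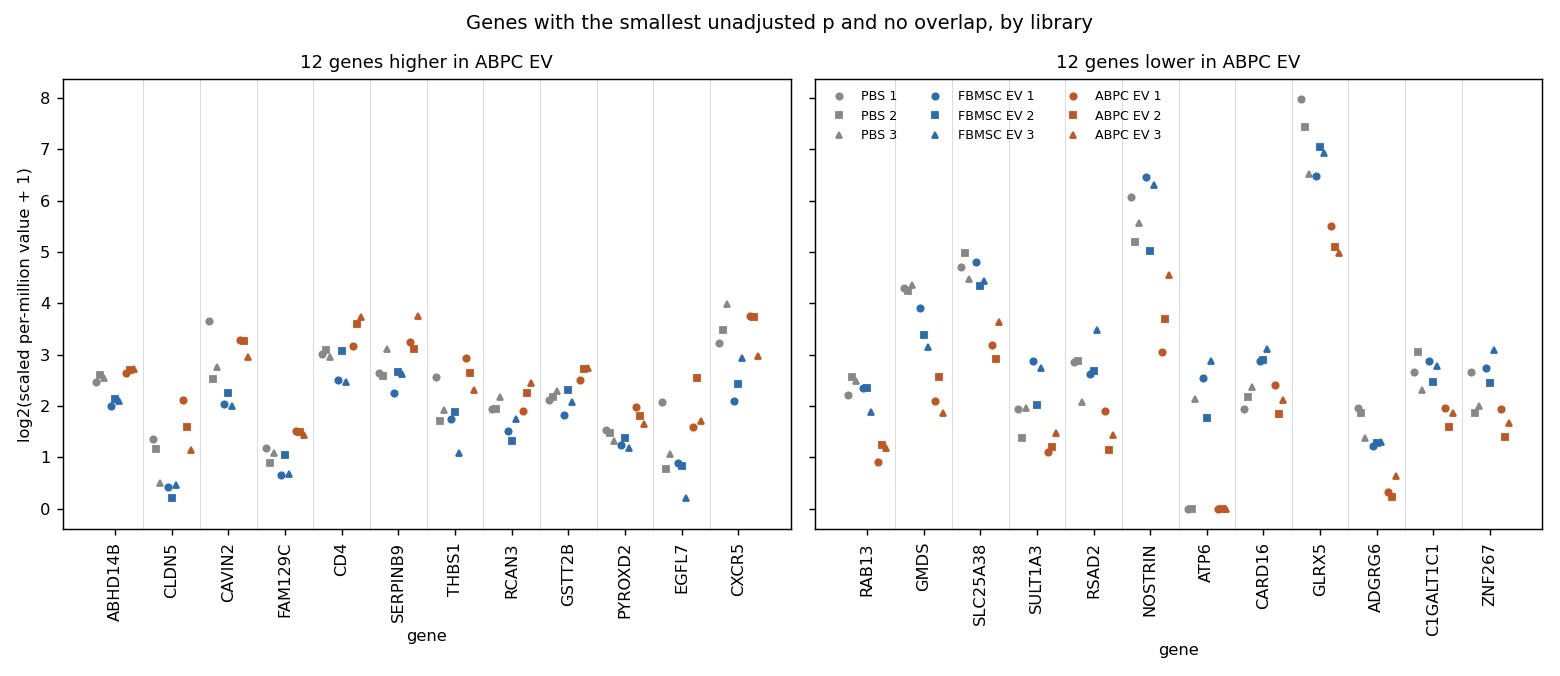
Level, as log2(scaled value + 1), of the 24 named genes with the smallest unadjusted p and no overlap between the vesicle groups (12 higher and 12 lower in ABPC_EV, x axis), in each library; colours are groups and symbols replicates. ABPC_EV and FBMSC_EV points separate for every gene, and PBS points lie on either side, with ATP6 listed at 0 in all 3 ABPC_EV libraries.

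The genes with the smallest p outside these lists had varied roles. RAB13, a small GTPase of membrane traffic, had the smallest p of those on the lower side: 4.08, 4.14 and 2.68 under FBMSC_EV and 0.878, 1.36 and 1.28 under ABPC_EV, a difference of -1.08 (SE 0.19, unadjusted p = 0.000207, limma). GMDS, which makes the GDP-fucose precursor for glycan synthesis, was at 14, 9.41 and 7.84 and 3.26, 4.9 and 2.63, 2.9 times as high under FBMSC_EV on average. The PBS animals were higher than both groups for GMDS, at 18.7, 17.9 and 19.6. NOSTRIN, an adaptor of endothelial nitric oxide synthase traffic, had the largest difference of the lower genes after ATP6, 86.4, 31.4 and 78.5 against 7.26, 12 and 22.4 (difference -2.16, SE 0.48, unadjusted p = 0.00117, limma). PBS animals, at 65.9, 35.8 and 46.4, lay within the FBMSC_EV range.

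SULT1A3, a sulfotransferase of catecholamines with near-identical copies in the genome, was at 6.31, 3.03 and 5.67 under FBMSC_EV and 1.17, 1.31 and 1.78 under ABPC_EV. CARD16, a CARD-only protein that binds caspase-1, was at 6.33, 6.44 and 7.69 and 4.34, 2.6 and 3.32, a narrower gap with small spread. ADGRG6, an adhesion G protein-coupled receptor, was at 1.32, 1.45 and 1.47 and 0.251, 0.182 and 0.564. C1GALT1C1, the chaperone of O-glycan core synthesis, and ZNF267, a zinc finger protein, had differences of -0.91 and -1.09. For CARD16, RSAD2 and ZNF267 the PBS animals overlapped at least 1 vesicle group, so no order with vehicle held for all the lower genes.

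On the higher side ABHD14B, an alpha/beta hydrolase, had the smallest p: 3.01, 3.41 and 3.3 under FBMSC_EV and 5.25, 5.52 and 5.62 under ABPC_EV, a difference of 0.61 (SE 0.13, unadjusted p = 0.00123, limma). The PBS animals lay between the vesicle groups, at 4.51, 5.08 and 4.81. SERPINB9, the intracellular inhibitor of granzyme B, was at 3.8, 5.38 and 5.13 and 8.47, 7.69 and 12.5, 2.0 times as high on average. FAM129C, a gene of B cells, was at 0.587, 1.06 and 0.60 and 1.84, 1.83 and 1.72. RCAN3, a regulator of calcineurin, GSTT2B, a glutathione transferase, and PYROXD2, an oxidoreductase-like protein, had differences of 0.67, 0.59 and 0.54 without overlap.

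Lists tied to ageing and to vesicles had medians near that of all genes. The 28 DNA repair and telomere genes had a median of 0.06 and the 14 senescence and lamina genes -0.13. MSH6, a mismatch repair gene, was the only member of the former without overlap (0.34), which is 3.57%, the same as for all genes. Without ABPC_EV replicate 2, 6 of 28 (21.4%, against 11.6% of all genes) lay above in the former and 6 of 14 (42.9%, against 20.2%) below in the latter. CDKN1A, the p21 inhibitor of the cell cycle, was at 4.8, 5.04 and 4.14 under FBMSC_EV and 4.14, 5.88 and 3.16 under ABPC_EV, with overlap. The 11 NAD and sirtuin genes had a median of 0.04. NAMPT, the rate-limiting enzyme of NAD salvage, was at 25.9, 13.4 and 16.1 and 7.81, 12.1 and 8.41 without overlap. BST1, an NAD-consuming surface enzyme, lay above (0.42). These were 1 of 11 on each side (9.09%, against 7.33% of all genes below and 3.57% above). SIRT1, an NAD-dependent deacetylase, overlapped at 2.71, 3.57 and 3.74 against 4.43, 2.35 and 4.6. The 10 cell cycle genes had a median of 0.08, with MKI67, a proliferation marker, at 0.891, 1.74 and 1.04 and 0.836, 1.39 and 1.44.

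Vesicle trafficking and uptake genes had a median of -0.14 over 28 genes. CHMP7, an ESCRT-III component, was at 7.95, 2.75 and 4.9 under FBMSC_EV and 10.6, 8.53 and 13.3 under ABPC_EV, above without overlap, and CHMP5, of the same complex, at 15.7, 8.68 and 10.7 and 6.87, 3.85 and 6.55, below without overlap. RAB5A and VPS4B were the other 2 that lay below, so 3 of 28 did (10.7%, against 7.33% of all genes). CHMP7 alone lay above (3.57%, against 3.57%). Without ABPC_EV replicate 2, 8 of 28 lay below (28.6%, against 20.2% of all genes). CD81, a tetraspanin of vesicle membranes, was near-level, at 44.9, 50.8 and 38.9 and 40.6, 54.8 and 40.2. The 18 TGF-beta, matrix and bone genes had a median of 0.07, with TGFB1 at 78.9, 106 and 66.5 and 73.8, 111 and 89.2. ACVR1, a BMP receptor, lay above (0.28) and OSCAR, an osteoclast-associated receptor, below (-0.62). These were 1 of 18 on each side (5.56%, against 3.57% of all genes above and 7.33% below).

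The remaining lists gave a median of -0.29 for 26 glycolysis and hypoxia genes and -0.02 for 17 cholesterol and lipid genes. Of the former, 1 lay below without overlap (3.85%, against 7.33% of all genes): SLC2A1, a glucose transporter (-0.32). Of the latter, 2 lay above without overlap (11.8%, against 3.57%). These were LSS (0.30) and SREBF2 (0.29), genes of sterol synthesis and its control. Without ABPC_EV replicate 2, 12 of the 26 glycolysis and hypoxia genes (46.2%, against 20.2% of all genes) lay below without overlap. GAPDH, the glycolytic enzyme, was at 146, 101 and 133 under FBMSC_EV and 82.1, 166 and 123 under ABPC_EV, with overlap. The median was 0.02 for 23 heat shock genes, -0.09 for 9 glucocorticoid response genes, -0.05 for 16 immediate early genes and 0.14 for 10 chemokine and receptor genes. Of these 4 lists only the last had a member without overlap, the chemokine receptor CCR4 (0.30), which is 10% of that list against 3.57% of all genes. Without ABPC_EV replicate 1, 6 of the 23 heat shock genes (26.1%, against 9.4% of all genes) lay above, and without ABPC_EV replicate 2, 4 of the 16 immediate early genes (25%, against 20.2%) lay below. FKBP5, a glucocorticoid-induced chaperone, was near-level at 11.4, 11.7 and 10.7 and 8.86, 10.7 and 10.1, as was HSPA8, the constitutive heat shock protein, at 254, 290.4 and 262 and 184, 282 and 267.

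Scaling decided how many genes were called. In the values as deposited, without scaling, the median gene was 0.73 higher in ABPC_EV, and 74 of 9879 genes passed (limma), 70 higher (0.709%) and 4 lower (0.0405%). Unadjusted, 4765 (48.2%) had a p under 0.05, of which 4743 were higher (48%) and 22 lower (0.223%). The ABPC_EV libraries lay above the FBMSC_EV libraries for 50.7% of genes on that scale and below them for 0.142%, or 14 genes. That is fewer than the 32 erythroid or the 20 interferon-stimulated genes that lay below on the scaled values. Those list counts therefore rest on the scaling. Of the 24 genes above, 12 passed as deposited, among them CLDN5 (difference 1.96, adjusted p = 0.00108), EGFL7 (2.07, adjusted p = 0.00377) and, on the lower side, ATP6 (-2.43, adjusted p = 0.00108). All 24 kept their direction there, which is no check for the higher genes, because that scale raises ABPC_EV against FBMSC_EV. The list medians did not all keep theirs, the interferon-stimulated list among them, while the median gene moved from -0.04 on the scaled values to 0.73 as deposited.

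Relative to the median of all genes, the erythroid list was at -0.80 as deposited, at -0.85 when libraries were set to an equal total outside the erythroid genes, where the median gene was at 0.24, and at -0.97 by voom. The interferon-stimulated list was at -0.64, -0.71 and -0.81 in that order. T cell genes were at 0.55, 0.50 and 0.59 and B cell genes at 0.57, 0.47 and 0.70. The erythroid and interferon-stimulated lists lay below the median gene and the T cell and B cell lists above it on each of these scales. The order of the last pair changed with the scale. Taking each scale against its own median gene removes most of what a change of scaling does. The likeness between scales is therefore no check of the scaling.

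**Figure D5:**
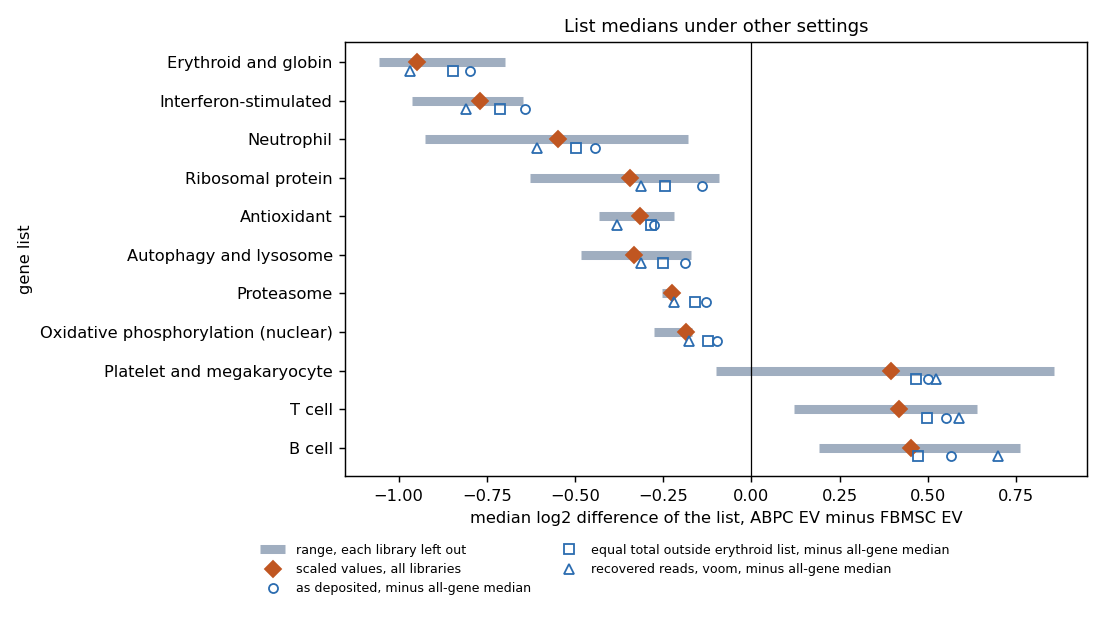
Median log2 difference of 11 lists (y axis) with all libraries (diamond), the range with each library left out (bar), and the median minus that of all genes under 3 other scalings or tools (open symbols). The erythroid and interferon-stimulated bars stay below 0 and the T cell and B cell bars above it, while the platelet bar runs from -0.10 to 0.86.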

How the data were processed

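Whole blood RNA of 9 macaques (3 each after PBS, FBMSC_EV and ABPC_EV) was sequenced from NEBNext Ultra libraries, per the labels' protocols. The genome build was Mmul_10, per the submitters' processing notes. No source used here names the aligner or the counting program. The authors' deposited table of 24371 genes holds log2 values to which about 0.5 was added before the log2, read from its lowest value of -1. With this undone, each library sums to 1000000 (ABPC_EV replicate 2 to 1000001), as TPM would. Whole reads were recovered for 21545 of 21551 genes above 0 in 2 or more libraries (tolerance 0.001). Of the rest, 5 with a mean value above 1000 were whole only at a wider tolerance of 0.03, and 1 was not whole. The globin read shares rest in part on the wider tolerance. Recovered reads gave depth, relative length and the voom alternative. Recovered reads are exact only up to a common multiple per gene.

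Scaled values (median ratio over 13350 genes) with a mean of at least 1 were tested as log2(value + 1) with limma 3.58.1 (trend, R 4.3.3) in all 9 libraries, with group as the only term and Benjamini-Hochberg adjustment (threshold 0.05). Single values were compared by exact permutation tests (scipy 1.17.1). The test was checked on simulated data: 2 of 8994 unchanged genes were called. Alternatives changed the pseudocount, filter, scaling, tool, libraries and replicate block, and a replicate number was read from the titles.

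Named genes were the 12 with a symbol, no overlap and the smallest p on each side, the first 3 measured genes of each of 39 lists (15 of cell types, 24 of processes), and each list's smallest p in either direction; others are marked. The members and lists were chosen with earlier results of these data known. Of 9 blood stem and progenitor genes 1 was tested (SPINK2, -0.41), of 9 skin, muscle and fibroblast genes 1 (KRT10, -0.22), of 9 endothelial genes 4 (median 0.01) and of 3 hepatocyte genes 0. The median was 0.05 for 8 dendritic cell genes, 0.15 for 9 eosinophil and basophil genes, 0.20 for 12 plasma cell genes and 0.23 for 5 regulatory T cell genes. Gene names are the table's own: 20451 are in RefSeq's gene table, of another assembly, so no coordinates are given. Values of some genes within the lists are not reported here, although the lists' counts and medians include them.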

Additional observations from a re-analysis of the deposited data

How the results depend on the processing

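The count of genes passing stayed at 0 (limma) under 17 of the 19 alternatives to the values reported, with between 261 and 637 genes at an unadjusted p under 0.05. With no filter on low values 5 genes passed, all LOC loci with at most 12 recovered reads in any of the 6 libraries. As deposited, without scaling, 74 passed. Over the fits that left out 1 library, the count stayed at 0 throughout (lowest 0, highest 0) and the smallest adjusted p ranged from 0.126 without PBS replicate 3 to 0.999 without FBMSC_EV replicate 1. The difference in globin share of the per-million values, -8.01 percentage points with overlap (exact permutation p = 0.2), ranged from -11.1 to -5.40 with each vesicle library left out, and the difference in genes detected, 2017, ranged from 1671 to 2314.

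With the replicate number as a block 0 genes passed (smallest adjusted p 0.479, 599 at an unadjusted p under 0.05). No pairing by number was seen in the values. Same-numbered libraries of the vesicle groups had correlations of their deviations of -0.14, -0.25 and 0.08. No vesicle library correlated best with its own number. Whether same-numbered animals shared a batch was not tested. The block changed no call.

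Of the values of list medians under the alternatives, 66 moved by more than the spread and 599 did not. The counts of genes without overlap with a vesicle library left out were chosen after seeing the data. Depth limits the low genes: at 11.7 to 13.3 M reads (M, 1000000), 30.3% to 58.0% of them globin, a scaled value of 1 rests on few reads for short genes. The 3 animals in a group limit every test, and 0.1 was the smallest exact permutation p that 3 against 3 allow.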
